A study of Mus musculus with 2 samples.

Results

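The 36 genes described here encode the path from glucose uptake to lactate release, with the enzymes that set its rate and those that admit pyruvate to the mitochondrion. They were chosen by gene symbol and joined between the count tables by gene identifier. The symbols matched 37 identifiers, because Aldoa names 2 in the tables, and 35 identifiers reached 1 count per 1000000 counts (CPM) in at least 1 of the libraries used. These 35 stood among 12779 genes at that level and among 51084 identifiers that the tables shared. The genes below it were Pdk4, a kinase that inhibits pyruvate dehydrogenase, which had 1 count with CANDI470 and 0 with PBS, and the second Aldoa identifier (ENSMUSG00000114515), with 6 and 9 counts.

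The cells were macrophages that had been differentiated in culture from the bone marrow of C57BL/6J mice. CANDI470, which the labels name by this code alone, was added at 1 mg/mL on day 7 of differentiation, and RNA was extracted 12 h later. The control culture was given PBS and is not described by dose, and the cells of both cultures carried the same C57BL/6J genotype. Polyadenylated RNA was sequenced from 1 sample of each culture, with 41646905 counts on genes for CANDI470 and 28442450 for the control. Cultures given empty CANDI, which the series' text also names, were not analysed here. The labels do not say from how many animals or wells a sample was drawn. With 1 sample a group no difference has a replicate check, no p-value is given, and each interval covers counting error only. The samples were counted in separate tables on different gene models, so an effect of the treatment and of how each library was made and counted cannot be told apart.

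As background, glycolysis splits glucose into pyruvate in the cytosol, yielding ATP and NADH. Transporters of the Slc2a family let glucose in, hexokinases trap it by phosphorylation, and phosphofructokinase commits it to breakdown under the control of an allosteric activator, a fructose bisphosphate made and removed by the Pfkfb enzymes. Pyruvate then meets a branch: lactate dehydrogenase reduces it to lactate, which leaves through monocarboxylate carriers of the Slc16a family, while pyruvate dehydrogenase turns it into acetyl-CoA unless its kinases switch it off. Macrophages activated by microbial products are known to take up more glucose and to release more lactate.

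Of the 35 members measured, 20 were at least 2-fold higher in CANDI470 (25.7% of all genes were), 8 were at least 2-fold lower (23.6% of all genes), and 7 lay within 2-fold. Here and below a difference is log2(CPM + 1) in CANDI470 minus the control after TMM scaling, and at least 2-fold means a difference of 1 or more in either direction, which is a size and no test. The members' median difference was 1.41, from -2.33 for Pdk2 to 6.23 for Pfkfb3, beside a median of -0.01 over all genes. Together the members took 1.52% of all counts on shared identifiers with CANDI470 and 0.517% with PBS. Comparing these shares is the same as scaling to library totals. After TMM the members summed to 19385 CPM with CANDI470 and 4039 with PBS. In bulk RNA, fewer cells of a type and less RNA per cell cannot be told apart.

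**Figure D1:**
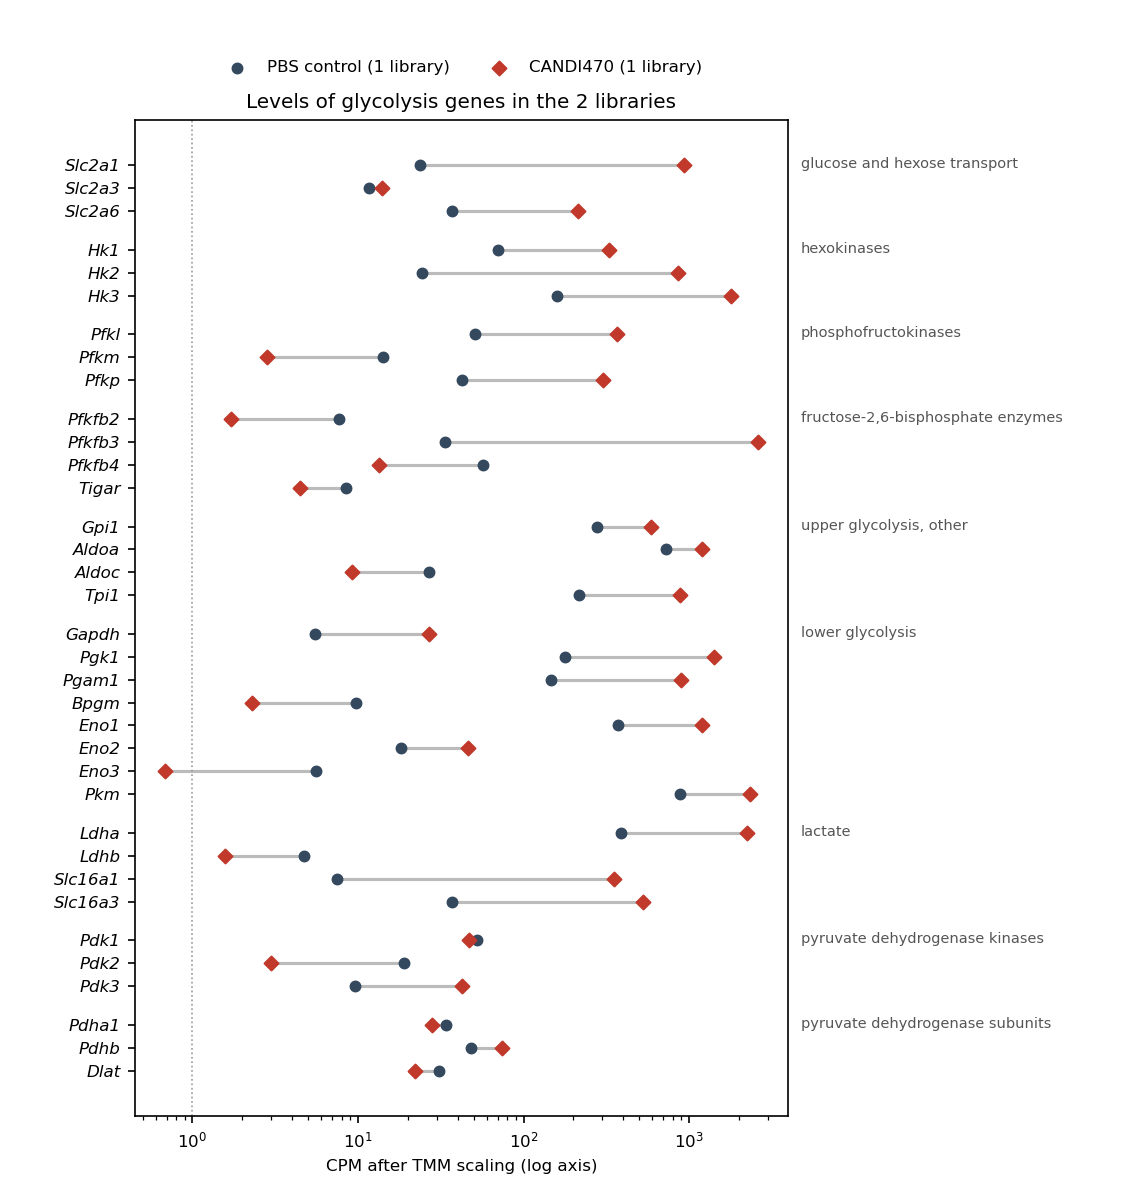
Level of each of the 35 members in the CANDI470 sample and in the PBS control sample, in CPM after TMM scaling on a log axis, with the members ordered along the pathway; each point is 1 library. Pfkfb3 stood at 2603 CPM with CANDI470 and 33.7 with PBS, while Pfkm, Pfkfb2, Pfkfb4, Aldoc, Bpgm, Eno3, Ldhb and Pdk2 lay lower in CANDI470.

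Within a step, isoforms of the same enzyme often differed in direction. Every step from glucose uptake to lactate release held at least 1 gene that was higher in CANDI470 by 2-fold or more, except aldolase, where Aldoa was 0.72 higher. The dehydrogenase step rests on Gapdh alone, whose value is uncertain, and the steps of Gpi1 and Pkm on a gene that lay within 2-fold when scaled to library totals. With that scaling Eno1, at 0.98, and Eno2, at 0.62, also lay within 2-fold, so no enolase was then higher by 2-fold. Of the 8 lower members, Bpgm lies off the main path, and Pfkfb4 was the leading Pfkfb isoform in the control, with 67.9% per base. The others stood beside a more abundant isoform in both libraries. Divided by the length of the gene model, the 8 lower members lay between 1.05 and 11.6 CPM per kilobase (kb) in the control. In CANDI470 they lay between 0.234 and 2.83. The 20 higher members lay between 1.34 and 176 CPM per kb in the control and between 6.52 and 679.7 in CANDI470. Counting error was small beside most of these differences: the half-width of the 95% interval of the ratio was 0.10 on the log2 scale for the median member and 0.67 at most.

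Pfkfb3, Slc16a1, Slc2a1 and Hk2 had the largest differences, and Pfkfb4 is a member of the family of Pfkfb3 that was lower in CANDI470. The 250 bases before their RefSeq starts on GRCm38.p6 are given because the first 4 genes had the largest differences and Pfkfb4 differed from Pfkfb3 in direction; each runs 5′ to 3′ on the gene's own strand, and capitals mark ACGTG or GCGTG on either strand (CACGT or CACGC where the match is on the other strand), the core letters of hypoxia-response elements. A match to ACGTG may lie within CACGTG, the E-box that Myc and its relatives bind, in which case all 6 letters are in capitals. The windows are chr2:11502091-11502340 (minus strand) and chr2:11553930-11554179 (minus strand) for the starts of Pfkfb3, chr3:104638414-104638663 (plus strand) for Slc16a1, chr4:119108495-119108744 (plus strand) for Slc2a1, chr6:82774455-82774704 (minus strand) for Hk2 and chr9:108991652-108991901 (plus strand) for Pfkfb4.
Pfkfb3, inner start: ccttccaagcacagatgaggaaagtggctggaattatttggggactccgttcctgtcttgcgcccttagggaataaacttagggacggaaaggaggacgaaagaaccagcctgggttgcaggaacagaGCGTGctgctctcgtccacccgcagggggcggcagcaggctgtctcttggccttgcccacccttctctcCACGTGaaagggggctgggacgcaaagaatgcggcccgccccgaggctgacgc
Pfkfb3, outer start: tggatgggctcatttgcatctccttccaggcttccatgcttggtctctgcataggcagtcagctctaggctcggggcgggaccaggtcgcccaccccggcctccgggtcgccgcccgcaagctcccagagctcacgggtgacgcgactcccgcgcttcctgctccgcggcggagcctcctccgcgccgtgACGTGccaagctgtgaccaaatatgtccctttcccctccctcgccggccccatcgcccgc
Slc16a1: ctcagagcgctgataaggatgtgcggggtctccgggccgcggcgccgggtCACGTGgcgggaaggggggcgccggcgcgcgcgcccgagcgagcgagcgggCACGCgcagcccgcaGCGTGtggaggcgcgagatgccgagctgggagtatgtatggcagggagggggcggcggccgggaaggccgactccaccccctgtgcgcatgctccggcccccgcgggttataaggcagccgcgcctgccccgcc
Slc2a1: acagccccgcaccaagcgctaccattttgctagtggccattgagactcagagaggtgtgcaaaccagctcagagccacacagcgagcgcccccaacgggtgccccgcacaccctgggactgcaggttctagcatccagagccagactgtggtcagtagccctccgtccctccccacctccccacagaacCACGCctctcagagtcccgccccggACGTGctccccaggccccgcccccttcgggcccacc
Hk2: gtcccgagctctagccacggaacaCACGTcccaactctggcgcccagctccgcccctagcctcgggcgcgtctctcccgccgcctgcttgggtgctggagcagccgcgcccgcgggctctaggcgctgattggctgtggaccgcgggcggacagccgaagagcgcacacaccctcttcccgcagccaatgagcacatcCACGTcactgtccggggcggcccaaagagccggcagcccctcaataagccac
Pfkfb4: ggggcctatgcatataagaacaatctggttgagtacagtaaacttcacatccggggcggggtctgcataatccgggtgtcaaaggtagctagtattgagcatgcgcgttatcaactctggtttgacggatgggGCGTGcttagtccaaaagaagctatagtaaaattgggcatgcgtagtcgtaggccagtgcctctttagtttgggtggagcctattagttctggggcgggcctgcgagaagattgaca
All 6 windows held at least 1 match, with 3 and 1 for the starts of Pfkfb3, 4 for Slc16a1, 2 for Slc2a1, 2 for Hk2 and 1 for Pfkfb4. A CACGTG counted as 2 matches, 1 on each strand. RefSeq gave 50 such windows for 34 members, some genes having several starts whose windows overlap. A match stood in 38 of these 50 windows (76%), against 38.6% of all 32851 windows in the table. It stood in 21 of 26 windows of the higher members (80.8%), in 12 of 15 windows of the lower members (80%) and in 5 of 9 windows of the members within 2-fold (55.6%), so the letters did not separate higher from lower members. CACGTG itself stood in 6 of the 50 windows, a share of 12%, and in 6.02% of all windows. Both motifs hold the letters CG, and the windows compared were not matched for base composition. Its part in these shares was not tested. For 40 of the 50 member windows the next 40 bases lay in a transcript of the gene. A match describes the letters alone and is not evidence of a factor bound there.

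Glucose uptake differed mainly in Slc2a1. Slc2a1, the transporter GLUT1 that supplies basal glucose to most cells (chromosome 4, 119108711 to 119137983 on GRCm38), had 30335 counts or 938 CPM with CANDI470 and 857 counts or 23.7 CPM with PBS, a ratio of 39.6 (95% interval 37.0 to 42.5) and a difference of 5.25. Slc2a6, GLUT6, a carrier of lysosomal membranes in macrophages, had 215 CPM with CANDI470 and 36.9 with PBS, a difference of 2.51. Slc2a3, the high-affinity transporter GLUT3, had 13.9 CPM with CANDI470 and 11.6 with PBS. Its ratio of 1.19 (1.04 to 1.37) lay within 2-fold, and its sign turned with the scaling: the difference was 0.24 after TMM and negative after scaling to library totals or upper quartiles and after trends with GC content and length were removed.

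Among the 3 transporters listed, the lead differed between the libraries, lying with the lysosomal carrier Slc2a6 in the control and with Slc2a1 in CANDI470. Slc2a1 stood above Slc2a3 in both. Counted per base of gene model, Slc2a6 made up 57.9% of the 3 transporters in the control (95% interval 56.0 to 59.8) and Slc2a1 34.0%, whereas in CANDI470 Slc2a1 made up 79.5% (79.1 to 79.9) and Slc2a6 19.9%. Slc2a3 made up 8.08% with PBS and 0.57% with CANDI470, or 16.1% and 1.19% without division by length. Such a share compares genes within a library and does not depend on scaling between libraries.

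All 3 hexokinases, which phosphorylate glucose and so keep it in the cell, were higher in CANDI470. Hk2, the isoform held at the mitochondrial surface and induced in growing or activated cells (chromosome 6, 82725025 to 82774454), had 27601 counts or 853 CPM with CANDI470 and 879 counts or 24.3 CPM with PBS, a ratio of 35.1 (32.9 to 37.6). Hk3, the isoform of myeloid cells (chromosome 13, 55005985 to 55021385), had 58128 counts or 1796 CPM with CANDI470 and 5779 counts or 159.6 CPM with PBS, a ratio of 11.3 (11.0 to 11.6). Markers of neutrophils, which also express Hk3, summed to 703 CPM with CANDI470 and 8.17 with PBS, of which Lcn2 made up 388 and 1.57. The part of neutrophils in the Hk3 difference was not tested. Hk1, the widely expressed isoform, had 328 CPM with CANDI470 and 69.8 with PBS, a difference of 2.21.

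Hk3 remained the main hexokinase by level in both libraries, with 72.9% of the 3 per base with CANDI470 and 78.0% with PBS. Below it the order of Hk1 and Hk2 was opposite in the libraries. Hk2 took 21.4% with CANDI470 and 7.32% with PBS, and Hk1 took 5.74% and 14.7%, or 11.0% and 27.5% without division by length. The ratio of Hk2 to Hk1 per base was 3.72 (3.64 to 3.81) with CANDI470 and 0.50 (0.46 to 0.54) with PBS.

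**Figure D2:**
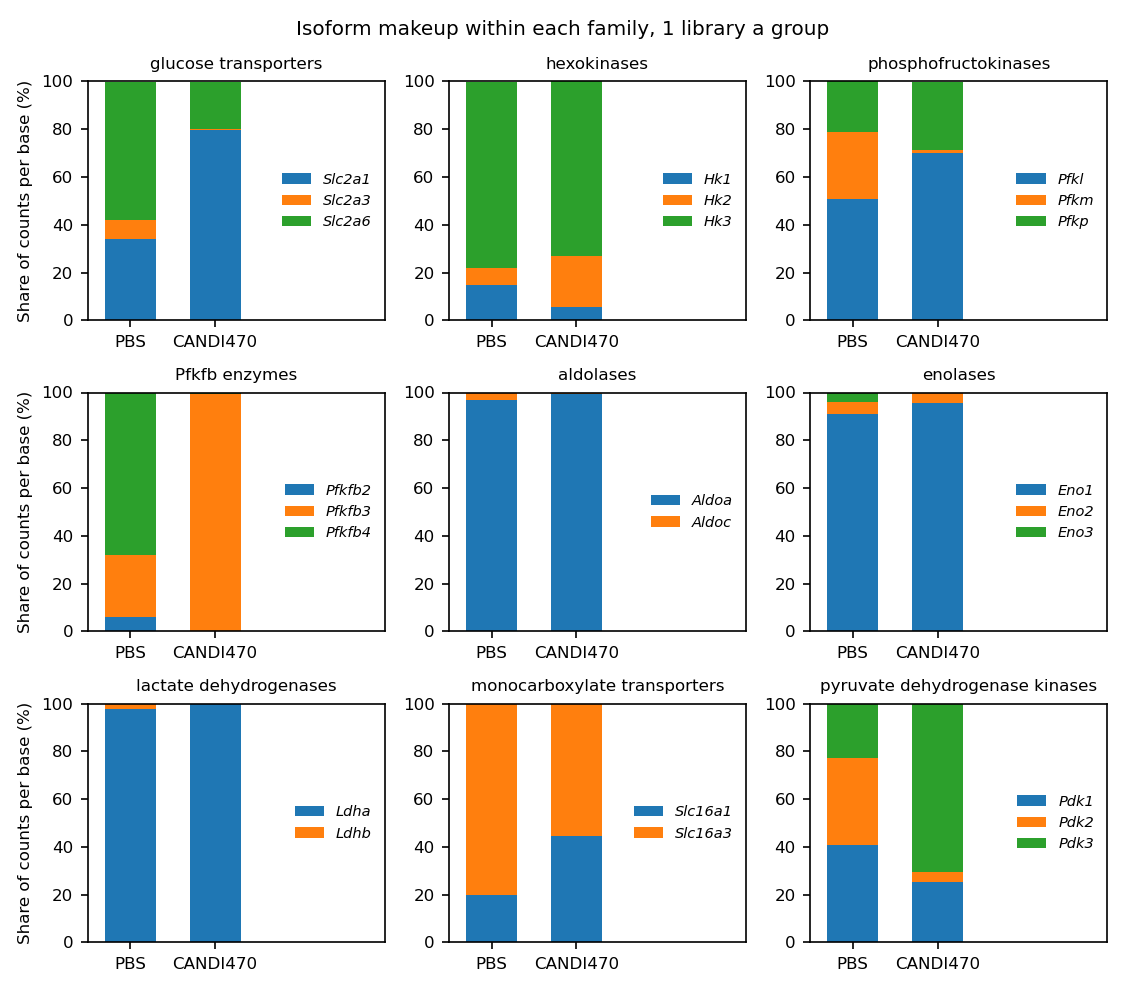
Share of each isoform within its family, in percent of the counts per base of gene model, in the CANDI470 sample and the PBS control sample; each bar is 1 library and its parts add up to the family. Pfkfb3 filled 99.1% of the Pfkfb bar with CANDI470 and 26.0% with PBS, where Pfkfb4 filled 67.9%.

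Phosphofructokinase and the enzymes that control it showed the widest spread among the steps. Pfkl, the liver-type subunit of phosphofructokinase, had 365 CPM with CANDI470 and 50.8 with PBS, a ratio of 7.18 (6.84 to 7.55). Pfkp, the platelet-type subunit, had 301 CPM with CANDI470 and 42.3 with PBS, a ratio of 7.11 (6.74 to 7.51), so the 2 subunits differed by almost the same ratio. Pfkm, the muscle-type subunit, went the other way, with 91 counts or 2.81 CPM with CANDI470 and 511 counts or 14.1 CPM with PBS, 5.02-fold lower (4.01 to 6.34). Overlapping gene models held more counts than Pfkm in both libraries, and with them added its difference of -1.99 was 0.54. Its share of the 3 subunits per base was 1.08% with CANDI470 and 28.2% with PBS (0.42% and 13.2% of the counts without division by length), while Pfkl took 70.1% and 50.8%.

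Pfkfb3, whose product is mainly a kinase that makes the activator of phosphofructokinase (chromosome 2, 11471433 to 11554077), was the member with the largest difference. It had 84216 counts or 2603 CPM with CANDI470 and 1219 counts or 33.7 CPM with PBS, a ratio of 77.3 (73.1 to 81.9). Pfkfb4, a family member with both kinase and phosphatase activity (chromosome 9, 108991778 to 109032228), had 434 counts or 13.4 CPM with CANDI470 and 2055 counts or 56.7 CPM with PBS, 4.23-fold lower (3.81 to 4.70). Pfkfb2, the isoform known from heart, had 55 counts or 1.70 CPM with CANDI470 and 277 counts or 7.65 CPM with PBS, 4.50-fold lower (3.36 to 6.12), a difference of -1.68 that was -0.92 with a pseudocount of 5 CPM and -0.42 with the counts of overlapping models added.

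The family therefore had a different leading isoform in each library: Pfkfb4 in the control and Pfkfb3 in CANDI470. The ratio of Pfkfb3 to Pfkfb4 per base was 125 (114 to 138) with CANDI470 and 0.38 (0.36 to 0.41) with PBS. Tigar, a phosphatase that removes the activator and sends sugar towards the pentose phosphate pathway, had 144 counts or 4.45 CPM with CANDI470 and 308 counts or 8.50 CPM with PBS. Its difference of -0.80 lay within 2-fold, and was -1.41 with library totals and -1.12 with upper quartiles. The ratio of Pfkfb3 to Tigar per base was 283 with CANDI470 and 1.91 with PBS.

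The other enzymes of the upper path lay between 2.90-fold lower and 4.07-fold higher in CANDI470. Gpi1, which turns glucose phosphate into fructose phosphate, had 585 CPM with CANDI470 and 279 with PBS, a ratio of 2.10 (2.05 to 2.15). Its difference of 1.07 was 0.36 when scaled to library totals and 0.70 when scaled to upper quartiles, both within 2-fold. Aldoa, the main aldolase, which cleaves the hexose into trioses, had 1198 CPM with CANDI470 and 729 with PBS, a ratio of 1.64 (1.62 to 1.67) that lay within 2-fold, and its difference of 0.72 was 1.46 once GC and length trends were taken out. Aldoc, the brain-type aldolase, had 299 counts or 9.24 CPM with CANDI470 and 970 counts or 26.8 CPM with PBS, 2.90-fold lower (2.54 to 3.31). Aldoa made up 99.3% of the aldolases per base with CANDI470 and 96.8% with PBS, so Aldoc was a small part of the step in both. Tpi1, which interconverts the trioses, had 877 CPM with CANDI470 and 216 with PBS, a ratio of 4.07 (3.97 to 4.17).

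In the lower path 6 of 8 members, Gapdh included, were at least 2-fold higher and 2 at least 2-fold lower, beside 25.7% and 23.6% of all genes, with a median difference of 1.55. Pgk1, the first enzyme of the path to regain ATP (chromosome X, 106187100 to 106203699), had 46077 counts or 1424 CPM with CANDI470 and 6416 counts or 177 CPM with PBS, a ratio of 8.04 (7.83 to 8.25). Pgam1, the mutase that follows it, had 892 CPM with CANDI470 and 147 with PBS, a ratio of 6.05 (5.87 to 6.23). For Pgam1 the CANDI470 table gave a gene model of 1982 bases and the control table one of 1831, and it was the only member measured whose lengths differed.

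Eno1, the widely expressed enolase, had 1205 CPM with CANDI470 and 373 with PBS, a ratio of 3.23 (3.17 to 3.29), and its difference of 1.69 was 0.98 with library totals. Eno2, the enolase best known from neurons, had 46.1 CPM with CANDI470 and 18.1 with PBS, a difference of 1.30 that was 0.62 with library totals and 0.95 with upper quartiles. Eno3, the muscle enolase, had 22 counts or 0.680 CPM with CANDI470 and 201 counts or 5.55 CPM with PBS, 8.16-fold lower (5.24 to 13.3), the widest interval among the members, and its difference of -1.96 was -0.89 with a pseudocount of 5 CPM. Eno1 made up 95.6% of the enolases per base with CANDI470 and 90.8% with PBS.

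Pkm, pyruvate kinase, which makes pyruvate and ATP, had 75613 counts or 2337 CPM with CANDI470 and 31918 counts or 881 CPM with PBS, a ratio of 2.65 (2.62 to 2.69), and its difference of 1.41 was 0.70 with library totals. Counts per gene do not separate its M1 and M2 splice forms. Bpgm, which makes the regulator of haemoglobin from a glycolytic intermediate and is best known from red cells, had 74 counts or 2.29 CPM with CANDI470 and 351 counts or 9.69 CPM with PBS, 4.24-fold lower (3.29 to 5.52).

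Gapdh, the dehydrogenase that makes the NADH of glycolysis, had 872 counts or 26.9 CPM with CANDI470 and 200 counts or 5.52 CPM with PBS, far below its neighbours Tpi1 and Pgk1 in both libraries. Its value is uncertain. Transcripts of 204 other genes matched it over at least 200 bases at 90% identity or more, 87 of them with a count, and together they held 3385 counts with CANDI470 and 1965 with PBS. Its difference was 2.10 alone and 1.13 when those counts were added. An overlapping gene model held a further 571 and 1607 counts, and adding these to Gapdh alone gave a difference of -0.16. Copies added in the same way moved Ldhb from -1.14 to -1.09 and Pdhb from 0.61 to 0.63, and left the other 9 members with copies within 0.01 of their difference. The named retrocopies that were measured, Eno1b, Pgk1-rs7, Ldha-ps2, Pgam1-ps2 and Tpi-rs11, had 82 to 512 counts with CANDI470, 20 to 200 with PBS, and differences of 1.09 to 2.16.

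Lactate formation and export held some of the largest differences. Ldha, the subunit of lactate dehydrogenase that favours making lactate (chromosome 7, 46841475 to 46855627), had 72794 counts or 2249.8 CPM with CANDI470 and 14090 counts or 389 CPM with PBS, a ratio of 5.78 (5.68 to 5.89). Ldhb, the heart-type subunit, had 51 counts or 1.58 CPM with CANDI470 and 170 counts or 4.69 CPM with PBS, 2.98-fold lower (2.17 to 4.16), a difference of -1.14 that was -0.56 with a pseudocount of 5 CPM and -0.84 with trends removed. Ldha made up 97.5% of both subunits per base with PBS and 99.9% with CANDI470. The ratio of Ldha to Ldhb per base was thus 39.3 (33.8 to 46.0) with PBS and 677 (515 to 909) with CANDI470.

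Slc16a1, the carrier MCT1 (chromosome 3, 104638668 to 104658462), had 11458 counts or 354 CPM with CANDI470 and 272 counts or 7.51 CPM with PBS, a ratio of 47.1 (41.8 to 53.4). Slc16a3, the carrier MCT4 known for exporting lactate from glycolytic cells (chromosome 11, 120948480 to 120960868), had 17035 counts or 526 CPM with CANDI470 and 1337 counts or 36.9 CPM with PBS, a ratio of 14.3 (13.5 to 15.1). Slc16a3 was the higher of these carriers per base in both libraries, but its lead was smaller in CANDI470, at 1.24 times Slc16a1 (1.21 to 1.27) against 4.09 times (3.59 to 4.68) in the control. In the CANDI470 table alone a gene model with 7464 counts overlapped that of Slc16a3, and its part in the difference was not tested.

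The gate of the mitochondrion had no common direction. Pdk3, a kinase that inhibits pyruvate dehydrogenase, had 1383 counts or 42.7 CPM with CANDI470 and 346 counts or 9.55 CPM with PBS, a ratio of 4.47 (3.97 to 5.05). Pdk2, a kinase of the same action, had 97 counts with CANDI470 and 691 with PBS, 6.36-fold lower (5.14 to 7.96) and the lowest difference of any member at -2.33. Pdk1, known as a target of the hypoxia response, had 46.6 CPM with CANDI470 and 52.4 with PBS, a difference of -0.17.

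Per base, Pdk3 made up 70.6% of these 3 kinases with CANDI470 and 22.6% with PBS, while Pdk1 made up 25.3% and 40.8% and Pdk2 4.01% and 36.6%. The subunits of pyruvate dehydrogenase itself lay within 2-fold after TMM. Pdha1, its catalytic alpha subunit, had 27.9 CPM with CANDI470 and 33.8 with PBS. Pdhb, its beta subunit, had 73.7 and 47.9 CPM, a difference of 0.61 that was -0.09 with library totals. Dlat, the acetyltransferase core, had 22.2 and 30.9 CPM, a difference of -0.46 that was -1.15 with library totals. The ratio of Ldha to Pdha1 per base was 90.8 (85.1 to 97.1) with CANDI470 and 13.0 (12.2 to 13.8) with PBS.

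**Figure D3:**
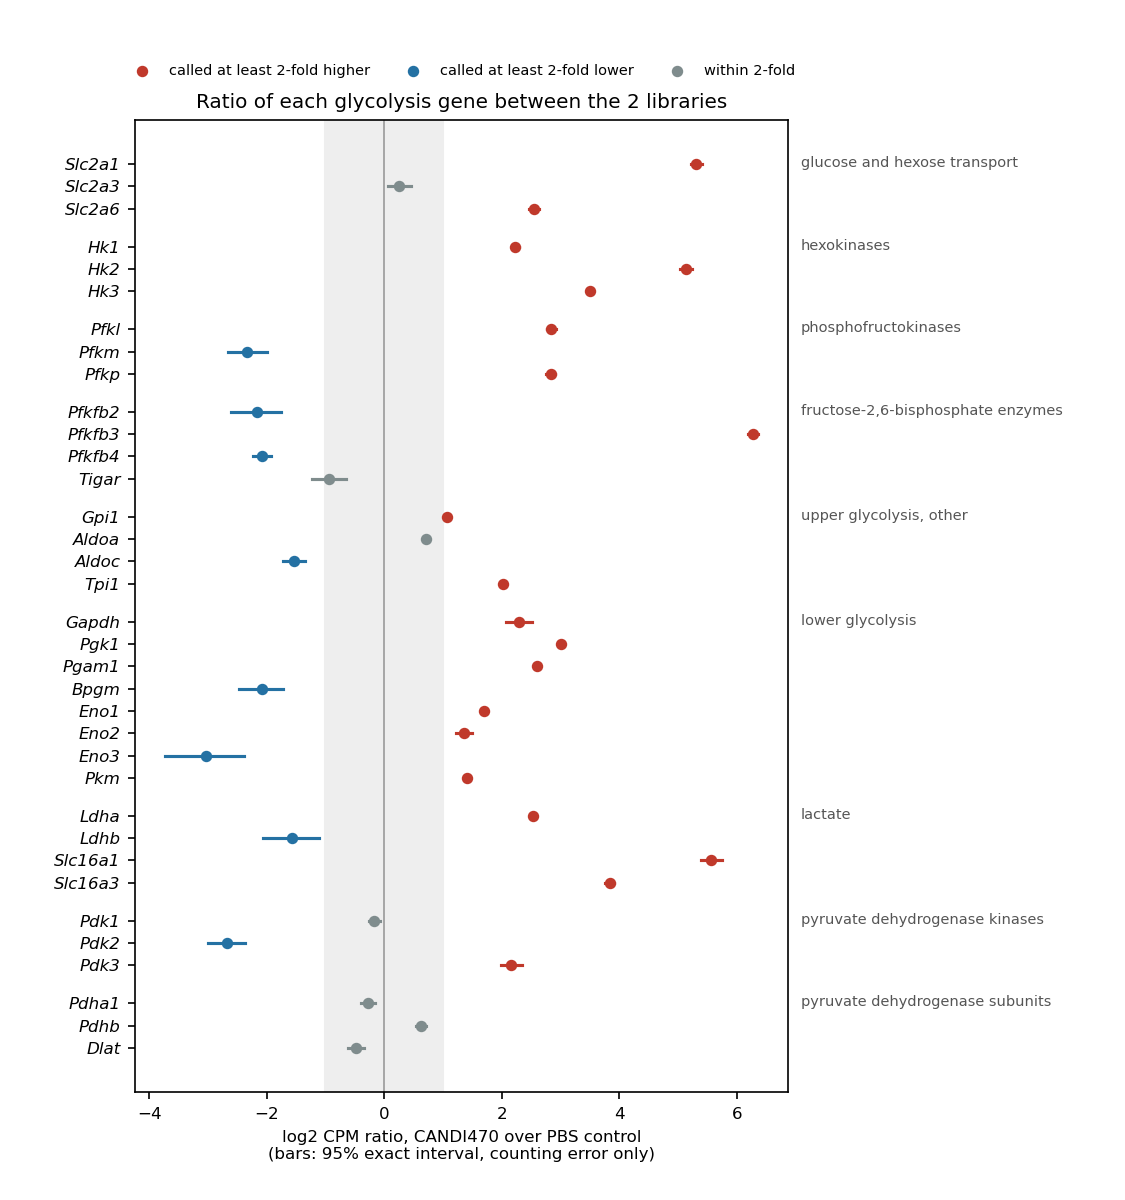
Ratio of CPM in CANDI470 to CPM in the PBS control for each of the 35 members on a log axis, with 95% exact intervals that cover counting error only, grouped by step. The points of Slc16a1, Slc2a1, Hk2 and Pfkfb3 lie at 35.1-fold or more, and the 8 lower members lie to the other side of the shaded band within 2-fold.

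The isoforms of each step were summed per kb of each table's own gene models. Read step by step, the ends of the path differed most among the steps summed. The Pfkfb enzymes and Tigar, which control the path, were left out of these sums. Without division by length they had 2622 CPM with CANDI470 and 107 with PBS, and the glucose transporters had 1166 and 72.2. The glucose transporters summed to 336 CPM per kb with CANDI470 and 19.9 with PBS, 16.9-fold higher, and the lactate carriers to 179 and 8.64, 20.7-fold higher. Hexokinase was 12.0-fold higher and phosphoglycerate kinase 8.04-fold. Phosphoglycerate mutase, lactate dehydrogenase and phosphofructokinase were 5.59-fold, 5.65-fold and 5.20-fold higher. Triosephosphate isomerase was 4.07-fold higher, enolase 3.06-fold, pyruvate kinase 2.65-fold, glucose-phosphate isomerase 2.10-fold and aldolase 1.60-fold. The dehydrogenase step, with the uncertain Gapdh alone, had 6.52 and 1.34 CPM per kb, 4.88-fold higher. Beyond the branch, the kinases of pyruvate dehydrogenase summed to 23.6 CPM per kb with CANDI470 and 16.5 with PBS, and the subunits Pdha1, Pdhb and Dlat to 31.1 and 27.8.

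The order of the levels per kb also differed between the libraries. In the control Aldoa stood highest at 250.3 CPM per kb, followed by Pkm at 176 and Ldha at 118. Pgam1 at 80.5, Pgk1 at 78.9 and Tpi1 at 78.3 came next, with counting intervals that overlapped, then Eno1 at 69.4, and then Hk3 at 43.3 and Gpi1 at 43.2, which overlapped too. In CANDI470 Ldha stood highest at 679.7 CPM per kb, followed by Pgk1 at 635, Hk3 at 488, Pkm at 467, Pgam1 at 449.9 and Aldoa at 411. Pfkfb3, at 4.45 CPM per kb in the control, stood at 344 in CANDI470, next to Tpi1 at 319 and Slc2a1 at 267. Pgk1 was 0.32 times Aldoa per base in the control and 1.54 times in CANDI470.

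**Figure D4:**
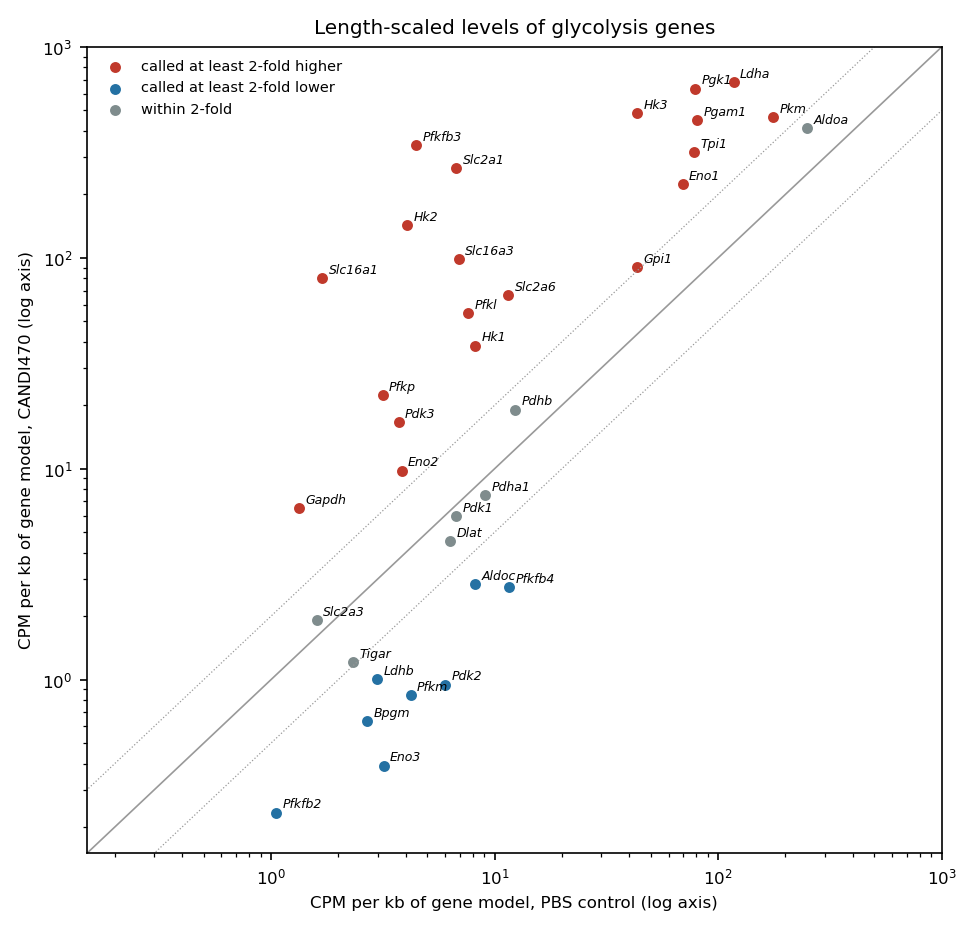
Level of each member per kilobase of gene model, in CPM per kb on log axes, with the PBS control on the horizontal axis and CANDI470 on the vertical axis; each point is 1 gene in 1 library of each group. Ldha lies at 118 and 679.7 CPM per kb and Aldoa at 250.3 and 411, and the 8 lower members lie at or below 11.6 CPM per kb in the control.

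Around the path, 115 genes of 11 neighbouring branches and regulator lists were measured. Of these, 27 (23.5%) were at least 2-fold higher and 33 (28.7%) at least 2-fold lower, near the 25.7% and 23.6% over all genes, against which the counts of each list below are to be read, and their median difference was -0.03. The side branches that draw on the path's intermediates went both ways. In the pentose phosphate pathway 2 of 10 were higher and 3 lower, with Pgd, which makes NADPH, at 1.21 and Pgls, the lactonase before it, at -3.17; Shpk, a sedoheptulose kinase, was at -2.14 and H6pd at -1.33. In glycogen metabolism 4 of 17 were higher and 2 lower, among them glycogen synthase Gys1 at 3.10, the branching enzyme Gbe1 at 2.76 and the phosphorylase kinase subunit Phka2 at -2.86. The phosphoglucomutase gene ENSMUSG00000025791, which the CANDI470 table calls Pgm1 and the control table Pgm2, was at 3.74.

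In the serine and one-carbon branch 4 of 8 were higher and 2 lower. The mitochondrial folate enzymes Mthfd2 and Mthfd1l were at 3.86 and 2.91, the serine enzyme Psat1 had 1204 counts with CANDI470 and 309 with PBS, and the cytosolic folate enzyme Mthfd1 was at -2.20. In the hexosamine branch 3 of 9 were higher and 2 lower: Gfpt1, its entry enzyme, was at 3.05, whereas Nagk, which salvages N-acetylglucosamine, was at -2.48 and Gnpda1, which returns hexosamine to glycolysis, at -2.61. The gene model of Gnpda1 had 4311 bases in the CANDI470 table and 2392 in the other. Gfpt2, the second entry enzyme, had 130 counts with CANDI470 and 0 with PBS, at least 48.5-fold higher against a floor of 3 counts, while the lower limit of its 95% interval was 38.9-fold.

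The glycerol phosphate, polyol, mannose and methylglyoxal branches had 2 of 12 genes higher and 8 lower, beside 25.7% and 23.6% of all genes, and a median of -1.48. Gpd2, the mitochondrial glycerol phosphate dehydrogenase that passes electrons of cytosolic NADH to the respiratory chain, was at 3.57 and Gmppb, which makes GDP-mannose, at 2.78. Gpd1l, a cytosolic relative of the same shuttle, was at -3.33 and the fructokinase Khk at -2.84. Among 8 genes listed under the shuttles that carry NADH electrons into the mitochondrion, 1 was higher and 4 lower. Slc25a12 was at 1.92, Slc25a13 at -2.23 and the cytosolic malate dehydrogenase Mdh1 at -1.58. Slc25a10, a dicarboxylate carrier listed with them rather than a part of these shuttles, was at -1.83.

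Of 8 other hexose and monocarboxylate carriers and chaperones that were measured, 2 were higher and 5 lower, with a median of -1.40. Slc16a7, the high-affinity carrier MCT2, was at -3.34, Slc2a8 at -3.09 and Slc16a13 at -2.77, while Emb, a chaperone of monocarboxylate carriers, was at 1.94. Of 13 other isoforms of the path's enzymes 3 were measured, all within 2-fold: Adpgk at -0.44, Pfkfb1 at -0.29 and Gapdhs at -0.88. Of 10 genes of pyruvate entry into the mitochondrion 2 were higher and 1 lower, with the dehydrogenase subunit Dld at 1.34, the regulator Pdpr at 1.23, the phosphatase Pdp2 at -1.37 and the lipoyltransferase Lipt1 at -0.99.

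Gluconeogenesis and its relatives had 5 of 9 genes measured, 0 higher and 2 lower. The phosphate-linked sugar phosphate exchanger Slc37a2 had 1716 counts with CANDI470 and 20751 with PBS, a difference of -3.41, and the phosphatase G6pc3 was at -1.52. Pyruvate carboxylase Pcx was at 0.49 and the mitochondrial carboxykinase Pck2 at 0.05. Among 25 regulators of glycolysis 7 were higher and 4 lower. Hif1a, the hypoxia-inducible factor subunit, had 84226 counts with CANDI470 and 2687 with PBS, a difference of 5.11, close to that of Slc2a1 and Hk2. Egln3, a prolyl hydroxylase that marks it for degradation, was at 4.21, Arrdc4, an arrestin that responds to sugar phosphates, was at 3.22, and Myc, a transcription factor that also drives glycolytic genes, was at -2.51.

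**Figure D5:**
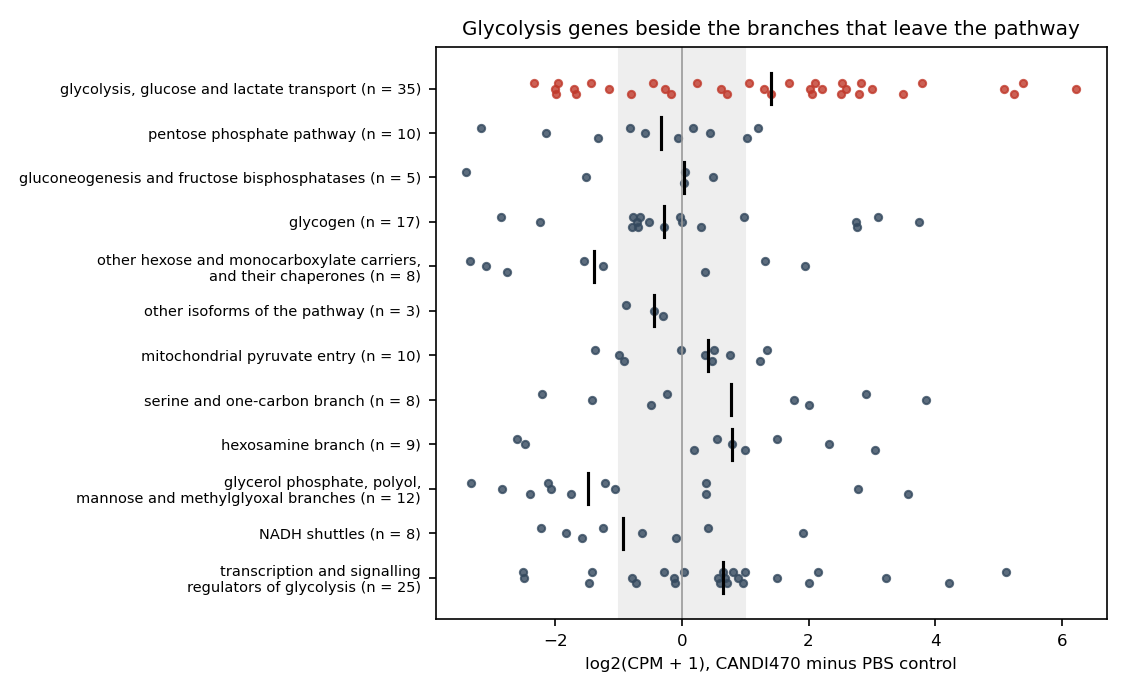
Difference in log2(CPM + 1), CANDI470 minus PBS control, for each measured gene by pathway list. The vertical axis holds the members as 1 row, followed by the 11 neighbouring lists. Each point is 1 gene, the bar is the list's median and the shaded band marks differences within 2-fold. The members have their median at 1.41 and the glycerol phosphate and related branches theirs at -1.48.

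The cells' label was checked against marker genes. All 12 macrophage markers were measured in both libraries, none at 0, and they summed to 14790 CPM with CANDI470 and 21862 with PBS. Markers of several other cell types summed higher in CANDI470. Neutrophil markers summed to 703 CPM against 8.17, of which Lcn2 made up 388 and 1.57. Of the 12, 8 were measured and all 8 were higher, with Ly6g and Cxcr2 at 0 in the control. Elane and Mpo, under 1 CPM in both libraries, were lower, with 2 and 9 counts against 10 and 12. Mast cell and basophil markers summed to 249 CPM against 3.76, all 8 higher, with Fcer1a, Ms4a2 and Gata2 at 0 in the control. Of these sums Hdc made up 199 and 0.166. Dendritic cell markers summed to 618 CPM against 106, with 5 of 7 measured higher, 1 lower and Siglech at 0 in CANDI470. Ccr7 made up 433 and 0.0552 of these sums, and Clec10a, the lower marker, 24.8 and 97.7. Erythroid and megakaryocyte markers summed to 493 CPM against 42.8, of which Pf4 made up 478 and 41.6, and Hba-a1 and Hbb-bs were at 0 in both. Markers of fibroblasts reached 10.1 CPM against 0.44, those of T and NK cells 9.98 against 14.0, of which Cd4 made up 4.91 and 13.5 while Cd8a, Trac and Nkg7 had 54, 34 and 23 counts in CANDI470 and 0 in the control, and those of B and plasma cells 1.42 against 1.85. Their part in the differences of the members was not tested.

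The counting strand is not stated in the sources used here, so reads of a member and of an overlapping gene model cannot be separated. For the 4 members with the largest differences the overlapping models held few counts, at most 0.93% of the member's own counts in either library. For Pfkm they held 1355 counts beside its 91 in CANDI470 and 593 beside its 511 in the control, and for Pfkfb2 296 beside 55 and 260 beside 277. The model over Pfkp held 665 and 805 counts, that over Tpi1 359 and 1622, and that over Pkm 4769 and 288. Added to the members, they moved the difference of Pfkp from 2.80 to 2.30, of Tpi1 from 2.02 to 1.77 and of Pkm from 1.41 to 1.48. Of the 16 members with no overlapping model in either table, 8 were at least 2-fold higher and 5 at least 2-fold lower, with a median of 0.96. Of all 5576 genes with no overlapping model, 1464 were higher and 1355 lower, with a median of -0.02.

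The number of members past 2-fold moved with the scaling between libraries. Scaled to library totals, 16 members were higher and 10 lower with a median of 0.70. Of all 12827 genes measured that way, 2080 were higher and 5152 lower, with a median of -0.69. Thus 28.8% of all genes past 2-fold were higher, against 52.1% after TMM. Taken relative to the median gene, the same scaling gave 20 members higher, 7 lower and a median of 1.38. Of all 12827 genes, 3368 were then higher and 2659 lower.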

How the data were processed

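Polyadenylated RNA was sequenced with paired reads of 150 bases, per the series' design text, in 1 sample given CANDI470 and 1 given PBS. The authors deposited whole-number counts of reads per gene, not normalized, and logCPM values on a log2 scale, which served as an alternative, per the file headers. The submitters' processing notes name mm10, while the aligner, counter and strand setting are not given in the sources used here. Besides these samples the tables hold 3 columns of per-sample values that match no listed sample, and these were not used.

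The tables were built on different annotations, so genes were joined by identifier, which kept 99.4% of all counts for CANDI470 and 99.5% for PBS. Of the 37 identifiers, the coordinates matched GENCODE M21 (GRCm38) for 36 in the control table and for 1 in the other, so the former are printed. TMM factors came from edgeR 4.0.16 (R 4.3.3) and were 0.782 for CANDI470 and 1.28 for PBS. A gene was kept when a library reached 1 CPM, and 1 CPM was added before taking log2. No test was run, as each group had 1 sample. The 95% intervals are exact: conditional binomial for ratios, binomial (Clopper-Pearson) for shares and Poisson for levels, with scipy 1.17.1. For a count of 0 the floor was 3 counts, equal to 0.0927 CPM (CANDI470) or 0.0828 CPM (PBS). Reads lack molecular identifiers and need not be independent molecules; intervals and floors therefore speak of counting error only. The calculation was tested on simulated counts in which far fewer genes were changed than passed 2-fold here. That test does not check the scaling between libraries that differ in so many genes.

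All measured members are named. Of each neighbouring list, the text names the 4 genes (or fewer) with the largest absolute difference, and the most opposite gene if it differed by 1 or more. The members and lists were chosen with earlier results of these data known. Copies were found by BLAST against GENCODE M21 transcripts, and promoter sequences are those of RefSeq. Alternatives comprised scaling by DESeq2 1.42.0, by library totals, by upper quartiles or by TMM on protein-coding genes, the deposited logCPM, pseudocounts of 0.1 and 5 CPM, a minimum of 0 or 5 CPM, equal gene models, trends with GC content and length removed over 20 bins, and isoform shares without length or with the control table's lengths. Scalings relative to the median gene, genes without overlapping models and counts of overlapping models added to a member were alternatives chosen after seeing the data.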

Additional observations from a re-analysis of the deposited data

How the results depend on the processing

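Of the members at least 2-fold higher or lower, 2 changed sign when the counts of overlapping gene models were added, Pfkm to 0.54 and Gapdh to -0.16, and none did under the other alternatives run. The counts of 20 higher and 8 lower members moved by more than 1.5 times only in the following cases. With a pseudocount of 5 CPM, 5 members were lower and Pfkfb2, Eno3 and Ldhb came within 2-fold. There 2354 of all 12779 genes were higher and 1774 lower. With no overlapping model, 8 of 16 members were higher and 5 lower, and 11 and 15 of 47 neighbouring genes. There 1464 of all 5576 genes were higher and 1355 lower. Scaling to library totals took Gpi1, Eno1, Eno2 and Pkm within 2-fold and Tigar and Dlat past it, and Slc2a3 and Pdhb, both within 2-fold, changed sign. Upper quartiles took Gpi1 and Eno2 within 2-fold and Tigar past it, with 18 members higher and 9 lower. Of all 12803 genes, 2581 were higher and 4063 lower, so 38.8% of those past 2-fold were higher. The median of all genes was -0.38. Removing trends with GC content and length gave 21 members higher and 7 lower, as Aldoa passed 2-fold and Ldhb did not. Of all 12772 genes, 3150 were then higher and 2680 lower.

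The members' median of 1.41 was 1.49 with DESeq2 size factors, 0.70 with library totals, 1.04 with upper quartiles, 1.44 with the deposited logCPM, 1.30 with no minimum, 1.55 with 5 CPM, 1.35 with equal model lengths, 2.24 with the trends removed, 1.38 with totals relative to the median gene and 0.96 with no overlapping model. The neighbouring genes' median was -0.71 with library totals. The causes were not tested. Without division by length the share of Slc2a1 was 80.4% in CANDI470, and the shares in CANDI470 and the control were 60.3% and 62.9% for Hk3, 54.6% and 47.4% for Pfkl, 99.4% and 34.3% for Pfkfb3, 99.2% and 96.5% for Aldoa, 96.3% and 94.0% for Eno1, 99.9% and 98.8% for Ldha, 59.8% and 83.1% for Slc16a3 and 46.3% and 11.8% for Pdk3; on that scale the shares of Pfkm were 0.42% and 13.2%, and Pdk1, with 50.5%, was the leading kinase in CANDI470 in place of Pdk3.

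No paired analysis was possible because each group had 1 sample, which also allows no analysis without a sample. Differences of members under 100 counts in a library rest on the widest intervals.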
